A study of Homo sapiens with 12 samples.

Results

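TRMT112 is a small protein that binds several methyltransferases and keeps them stable and active, among them enzymes that modify ribosomal RNA, transfer RNA and the translation termination factor. Cells with less or more of it are therefore studied for what their ribosomes translate. The genes described here are those whose RNA in the polysome fraction moved the same way with the TRMT112 level in 3 triple-negative breast cancer lines. They were chosen as genes with a change of at least 1.5-fold and the same sign in each of 3 pairs of groups, always taken as the group with more TRMT112 minus the group with less. By this rule 306 of the 16538 genes tested were members, 179 higher and 127 lower where TRMT112 was higher. Since these fold changes chose the members, they are given below as a description, without a test.

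Polysome-associated RNA was sequenced from MDA-MB-231, SUM159 and BT549 cells, human lines that lack the hormone receptors and HER2 amplification by definition of the subtype. MDA-MB-231 and SUM159 carried either a TRMT112 knockdown (KD) or the vector control that the labels call EV. BT549 carried either TRMT112 overexpression (OE) or its own EV. Each of the 6 groups had 2 libraries. According to the study's methods the KD construct was a lentiviral short hairpin RNA with a non-silencing hairpin as its control, kept under puromycin, and the OE construct was an open reading frame clone with an empty expression vector as its control, kept under G418. The direction of the TRMT112 change, the kind of construct and the selection drug thus cannot be told apart between BT549 and the other two lines. Whether a line was grown as a pool or from 1 clone, and whether the libraries of a group came from separate cultures, is not given in the sources used here, so p-values measure only the spread between these libraries. No total RNA libraries were used here, so more transcript and a larger share of it on polysomes cannot be told apart.

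Totals ran from 22954226 to 27434677 estimated counts a library, and the median difference between the 2 libraries of a group was 0.08 to 0.10 on the log2 scale over all genes. At 50 counts or more it was 0.06 to 0.07, against 0.26 to 0.33 below 50 counts. Of the basal and mesenchymal markers VIM, CD44, EGFR and ZEB1 had at least 14860, 4227, 1094 and 718 counts in every library, whereas the group means of KRT14 exceeded 1.5 counts in SUM159 EV alone and those of CDH2 were 3.0 and 7.5 in MDA-MB-231. The luminal keratins KRT8 and KRT18 reached 9609 and 10523 counts in the KD lines, but their group means in BT549 were at most 13.5 and 5.5 counts. The luminal factor GATA3 averaged 1253.5 counts in BT549 EV and at most 149.5 in the other groups, and FOXA1 did not exceed 124 counts. PGR did not exceed 9 counts in any library, whereas ERBB2 was read at 1478 to 3089 counts. Of the markers of other cell types PTPRC did not exceed 16 counts, PLIN1 25, CDH5 105 and PECAM1 119. CD68, a macrophage marker, had 147 to 4990 counts, with means of 3823 in BT549 EV and 147 in OE, and its part in the results was not tested.

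TRMT112 itself (chromosome 11, 64316460 to 64317559, GRCh38) moved in the labelled direction in each line. Its normalized counts in MDA-MB-231 were 4147 and 3938 in EV and 1764 and 1682 in KD. In SUM159 they were 6332 and 6566 in EV and 3909 and 3699 in KD, and in BT549 4286 and 4319 in OE and 3076 and 3087 in EV. The 2 groups of a line did not overlap in any line, and the KD level of SUM159 was close to the EV level of MDA-MB-231. The log2 fold changes were 1.23 ± 0.04, 0.76 ± 0.04 and 0.48 ± 0.04 (standard error derived from the F statistic of the test, n = 2 libraries a group; edgeR quasi-likelihood test, adjusted p = 5.1e-16, 1.76e-14 and 1.48e-10). Since the overexpression was 1.40-fold, TRMT112 was not a member of the set that follows it. The 3 sizes differed from each other (adjusted p = 1.74e-10).

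None of the 7 methyltransferase partners that were tested was a member or was called with the same sign in all 3 pairs. BUD23, the methyltransferase of small-subunit ribosomal RNA, had log2 fold changes of -0.44 ± 0.03, 0.10 ± 0.03 and 0.20 ± 0.03 in MDA-MB-231, SUM159 and BT549. METTL5, the other ribosomal RNA methyltransferase of the group, had 0.17 ± 0.05, -0.10 ± 0.05 and 0.93 ± 0.07. ALKBH8, which modifies the wobble uridine of transfer RNA, had 0.18 ± 0.07, 3.02 ± 0.07 and -0.42 ± 0.09. TRMT11, a transfer RNA guanosine methyltransferase, had 0.30 ± 0.07, 1.31 ± 0.08 and -0.30 ± 0.10. The effects of the lines differed for all 7 partners.

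How many genes met the rule was read against the genes that changed by 1.5-fold in every pair with any combination of signs. There were 1352 such genes, of which 1046 (6.32% of the genes tested) had mixed signs. The members made up 1.08% of the genes tested for the higher and 0.768% for the lower direction, or 22.6% of the 1352 genes, and their patterns are 2 of the 8 that signs can form. The 6 mixed patterns held 136 to 239 genes each. The 179 higher members thus lay inside this range, and the 127 lower members were fewer than any mixed pattern. Among the 203 such genes whose higher group averaged 50 normalized counts or more in each line, 24 were higher, 28 were lower and 151 were mixed. This filter reads the group in which a gene is high. With all 6 group means at 50 or more there were 14 higher and 16 lower members and 73 mixed genes, among 9865 genes at this level.

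**Figure D1:**
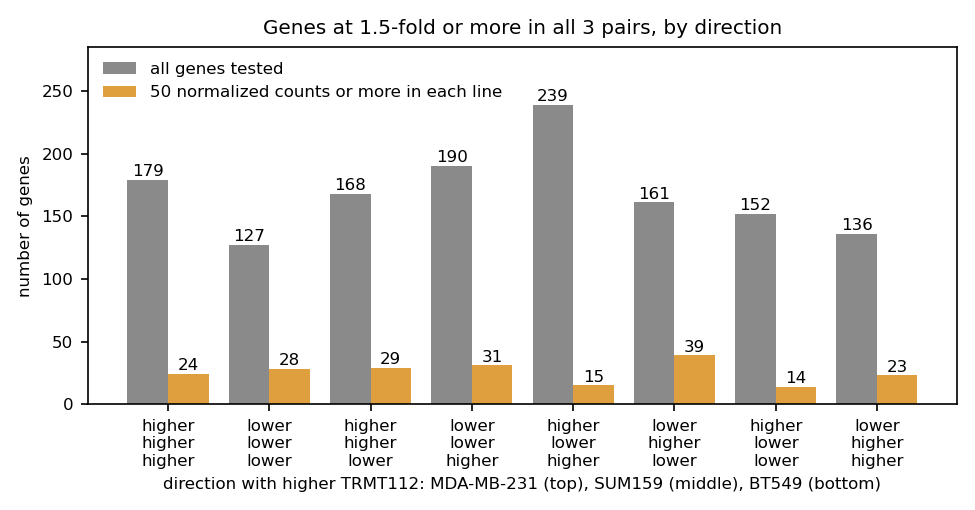
Number of genes (vertical axis) with a change of 1.5-fold or more in all 3 pairs, by the direction in MDA-MB-231, SUM159 and BT549 with higher TRMT112 (horizontal axis). Gray bars are all genes tested and orange bars are genes with 50 normalized counts or more in the higher group of each line. The 2 bars on the left are the members, 179 and 127 genes, beside 136 to 239 genes in each mixed pattern.

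The 3 pairs were read from separate libraries, so genes chosen in 2 of them could be read in the third. Of 978 genes at 1.5-fold higher in SUM159 and BT549, 18.3% were also 1.5-fold higher in MDA-MB-231 and 13.9% were 1.5-fold lower, where all genes gave 10.5% and 7.92%. Of 478 genes higher in MDA-MB-231 and SUM159, 37.4% were higher in BT549 and 35.1% were lower, where all genes gave 29.1% and 27.5%. The genes higher in MDA-MB-231 and BT549 went the other way in SUM159 more often than the same way, 32.4% against 24.3% of 738, where all genes gave 19.9% and 21.3%. The opposite direction was also the more frequent in all 3 sets of genes chosen as lower, as it was for all genes. In MDA-MB-231 it was 16.1% against 13.4% of 947, where all genes gave 10.5% and 7.92%. In SUM159 it was 34.0% against 26.8% of 474, where all genes gave 21.3% and 19.9%. The widest gap was in BT549, with 45.0% of 422 genes opposite and 30.1% in the same direction, where all genes gave 29.1% and 27.5%. The chosen genes thus changed by 1.5-fold in the left-out pair more often than all genes did, in both directions. Over all 16538 genes the log2 fold changes of the pairs had Pearson's r of 0.01 (MDA-MB-231 and SUM159), 0.02 (MDA-MB-231 and BT549) and -0.05 (SUM159 and BT549). This describes genes within these libraries, which are no replicates of each other.

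**Figure D2:**
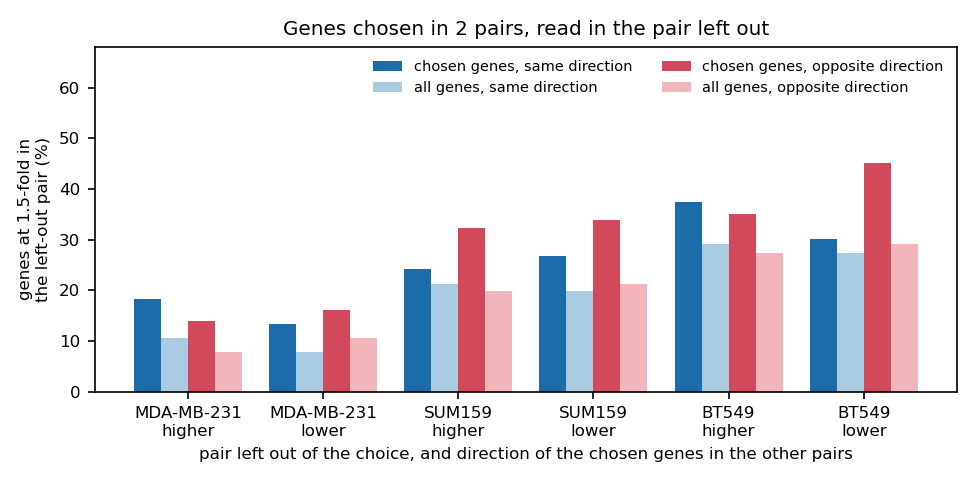
Share of genes at 1.5-fold or more in a pair (vertical axis, percent) for genes chosen in the other 2 pairs, by the pair left out and the direction of the choice (horizontal axis). Blue is the same direction as the choice and red the opposite, dark bars are the chosen genes and light bars all genes tested. In 4 of the 6 sets the dark red bar is above the dark blue one. In the sets chosen as lower the light red bar is above the light blue one too.

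Within a line, the libraries numbered 1 and 2 allowed the same reading. From the libraries numbered 1 alone, 151 genes met the rule as higher, and 41 of them (27.2%) met it again in the libraries numbered 2, where 0.967% of all genes did. Of 121 chosen as lower, 36 (29.8%) met it again, beside 0.605% of all genes. At 50 counts or more, 11 of 27 higher and 18 of 28 lower genes met the rule again, beside 0.291% and 0.235% of all genes at this level. The sign was kept in every pair by 78 of the 151 (51.7%) and 71 of the 121 (58.7%), beside 12.2% and 12.3% of all genes. At 50 counts or more it was kept by 25 of the 27 and 27 of the 28. In the libraries numbered 2, 13.2% and 13.99% of all genes at this level had the same sign in every pair. The level was read from all 12 libraries, the held-out ones included, in the group where a gene is high.

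Most members were low. Their median normalized count over the 12 libraries was 16.7 for the higher and 68.8 for the lower members, against 430.7 for all genes tested and 27.6 for the mixed genes. At least 1 of the 6 groups had 3 counts or fewer in each of its libraries for 189 members, 122 higher and 67 lower. Of the higher members 110 (61.5%) were protein coding and 59 (33.0%) long noncoding RNAs, and of the lower 93 (73.2%) and 23 (18.1%). Over all genes the shares were 83.9% and 12.8%, and over the mixed genes 73.1% and 22.1%. The libraries of the 2 groups did not overlap in any of the 3 pairs for 88 of the higher and 58 of the lower members, where 6.36% and 6.31% of all genes were apart in this way. An adjusted p under 0.05 in every pair was reached by 35 higher and 41 lower members and by 266 of the 1046 mixed genes. Of all 16538 genes 3947 reached it with any signs, and 2.99% and 3.83% did so as higher and lower in every pair. Over all genes, this threshold was passed in the higher and lower direction by 16.5% and 21.2% in MDA-MB-231, 31.4% and 28.6% in SUM159 and 35.6% and 35.0% in BT549. Nothing is read from these counts, since the rule used the same contrasts. The members named below are the 12 per direction with the largest smallest change among those called in every pair at 50 counts or more, and the members that stand on a gene list.

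EGR1 (chromosome 5, 138465479 to 138469303), an immediate-early zinc finger transcription factor, had the largest smallest change of the higher members called in every pair at 50 counts or more. It had 1128 and 1091 normalized counts in MDA-MB-231 EV and 185 and 210.0 in KD, 439 and 472 in SUM159 EV and 228 and 192 in KD, and 729.8 and 690.5 in BT549 OE and 197 and 214 in EV. Both libraries with more TRMT112 were above both with less in every line, and the 3 groups with less TRMT112 lay close together. The log2 fold changes were 2.49 ± 0.09, 1.12 ± 0.10 and 1.79 ± 0.10 (here and below in the order MDA-MB-231, SUM159 and BT549, with the standard error derived from the F statistic). EGR1 is a well-known target of serum response factor (SRF), which binds the CArG box, and this box was searched on both strands, with 5 other motifs, in the 250 bases before the gene starts that RefSeq lists for GRCh38.p14. Promoters were at hand for 101 higher and 78 lower members. A CArG box stood before 3 higher members (2.97%), EGR1, NPM3 and CHI3L1, and 2 lower ones (2.56%), ATXN1 and NTRK2, where 1.53% of 11857 tested genes with a promoter and 2.08% of the mixed genes held one. The 3 of these members with 50 counts or more in each line are printed 5′ to 3′ on the gene's strand, ending at the base before the start, with the CArG boxes in capitals, to show where the letters stand in promoters of members that moved in opposite directions.
EGR1, chr5:138465229-138465478, plus strand: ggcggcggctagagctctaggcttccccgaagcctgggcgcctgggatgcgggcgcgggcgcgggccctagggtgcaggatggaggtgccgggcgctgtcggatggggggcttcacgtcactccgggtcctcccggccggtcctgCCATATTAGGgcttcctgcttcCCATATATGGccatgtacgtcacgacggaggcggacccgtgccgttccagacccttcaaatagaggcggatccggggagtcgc
NPM3, chr10:101783447-101783696, minus strand: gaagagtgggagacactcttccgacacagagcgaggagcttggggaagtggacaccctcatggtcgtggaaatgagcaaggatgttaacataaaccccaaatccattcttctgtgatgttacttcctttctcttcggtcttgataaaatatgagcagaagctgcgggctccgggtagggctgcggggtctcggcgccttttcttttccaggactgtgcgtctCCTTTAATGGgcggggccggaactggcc
ATXN1, chr6:16761461-16761710, minus strand: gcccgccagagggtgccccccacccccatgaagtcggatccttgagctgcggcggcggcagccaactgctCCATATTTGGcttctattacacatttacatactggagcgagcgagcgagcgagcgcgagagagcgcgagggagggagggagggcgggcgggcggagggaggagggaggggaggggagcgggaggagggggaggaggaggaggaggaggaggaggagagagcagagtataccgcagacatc
EGR1, which prompted the search, is one of the 3 higher members with a box. Of the other motifs, each counted on its own, the kappa B site stood before 10.9% of the higher and 12.8% of the lower members, beside 8.16% of all genes and 11.2% of the mixed genes. The TATA box TATAAA stood before 14.9% and 10.3%, beside 8.29% and 11.7%, and the E-box CACGTG before 9.90% and 8.97%, beside 10.9% and 11.2%. The cyclic AMP element TGACGTCA stood before 0.990% and 1.28%, beside 3.399% and 2.72%, and TGATGCAA before no member, beside 0.624% and 0.801%. The boxes of the printed promoters began 105 and 83 bases before the EGR1 start, 28 bases before that of NPM3 and 180 bases before 1 of the listed starts of ATXN1. A match of letters is a description and not a binding site. NPM3, a nucleoplasmin-family histone chaperone, was chosen here for its box after its values were seen, and its normalized counts were 1631 and 1594 in MDA-MB-231 EV and 1049 and 1041 in KD, 2791 and 2743 in SUM159 EV and 1578 and 1535 in KD, and 3726 and 3698 in BT549 OE and 925 and 933 in EV. It was the best-counted of these 3 genes, with log2 fold changes of 0.63 ± 0.05, 0.83 ± 0.04 and 2.00 ± 0.04. ATXN1, a chromatin-bound protein that represses transcription together with CIC, was lower with more TRMT112, at -1.06 ± 0.10, -0.85 ± 0.09 and -1.12 ± 0.09.

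Several of the named members are ligands or receptors, a grouping made after their values were seen. On the fixed list of growth factors and receptors 1 of 32 genes, EFNB1, was a higher member and none a lower one. Over all genes the shares were 1.08% and 0.768%. BMP2, a bone morphogenetic protein, was higher at 2.24 ± 0.22, 1.00 ± 0.22 and 0.96 ± 0.15 on the log2 scale. Its normalized counts were 132 and 102 against 20.6 and 28.9 in MDA-MB-231, 69.6 and 70.4 against 39.3 and 31.1 in SUM159 and 371 and 367 against 195 and 185 in BT549, each time with the EV libraries of the KD lines, or the OE libraries of BT549, first. NOTCH3, a Notch receptor, was highest in BT549, with 2905 and 2786 normalized counts in OE and 912 and 898 in EV, and was near the 50-count limit in MDA-MB-231, with 79.96 and 74.9 in EV and 41.2 and 44.3 in KD. Its log2 fold changes were 0.85 ± 0.17, 0.77 ± 0.06 and 1.65 ± 0.06. EFNB1, a membrane-bound ephrin ligand, followed at 0.69 ± 0.11, 1.44 ± 0.08 and 1.14 ± 0.09, and the secreted protein ISM1 at 2.12 ± 0.29, 0.81 ± 0.22 and 3.21 ± 0.24.

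Among the lower members, SEMA3F (chromosome 3, 50155045 to 50189075), a secreted semaphorin that signals through neuropilins, had 709 and 691 normalized counts in MDA-MB-231 EV and 1347 and 1258 in KD, 1656 and 1735 in SUM159 EV and 3644 and 3554 in KD, and 2498 and 2456 in BT549 OE and 9442 and 9515 in EV. The groups were apart in each line, and the log2 fold changes were -0.90 ± 0.05, -1.09 ± 0.04 and -1.94 ± 0.04. WNT5B, a Wnt ligand, was at -1.01 ± 0.04, -0.95 ± 0.18 and -1.95 ± 0.04. It had 10296 and 10052 normalized counts in BT549 EV but only 46.4 and 34.2 in SUM159 EV and 87.7 and 69.2 in SUM159 KD. ADRA1B, an alpha-1 adrenergic receptor, was at -1.31 ± 0.21, -2.82 ± 0.22 and -2.55 ± 0.30. MEGF6, a protein with many epidermal growth factor repeats, was at -1.93 ± 0.10, -1.08 ± 0.10 and -3.30 ± 0.06.

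Adhesion and surface genes were found on both sides. Of 48 cell adhesion genes tested, 1 was a higher and 2 were lower members, beside 1.08% and 0.768% of all genes. ICAM1 (chromosome 19, 10271093 to 10286615), the leukocyte adhesion receptor, had 649 and 564 normalized counts in MDA-MB-231 EV and 314 and 331 in KD, 888 and 908 in BT549 OE and 415 and 441 in EV, and in SUM159 1648 and 1639.7 in EV and 141 and 109.8 in KD. SUM159 stood out, with a log2 fold change of 3.72 ± 0.09 beside 0.91 ± 0.09 in MDA-MB-231 and 1.07 ± 0.08 in BT549. S100A2, a calcium-binding protein, had the same shape at 1.13 ± 0.17, 4.01 ± 0.06 and 0.84 ± 0.09. CLDN4 (chromosome 7, 73799542 to 73832690), a tight junction protein of epithelia, had the largest smallest change of the lower members called in every pair at 50 counts or more. Its normalized counts were 542 and 548 in MDA-MB-231 EV and 1765 and 1749.6 in KD, 64.6 and 47.2 in SUM159 EV and 136 and 163 in KD, and 22.1 and 29.4 in BT549 OE and 95.3 and 96.3 in EV. The level ranged widely between lines while the log2 fold changes, -1.69 ± 0.08, -1.42 ± 0.16 and -1.89 ± 0.22, lay close together. PSCA, a surface antigen with a lipid anchor, was at -1.04 ± 0.15, -3.00 ± 0.17 and -1.87 ± 0.19. CDH1, the epithelial cadherin, also met the rule, but SUM159 had no count in 3 of its 4 libraries and MDA-MB-231 no more than 7.71 normalized counts. Its levels were 17.7 and 23.8 in BT549 OE and 63.5 and 50.9 in EV. Other epithelial genes among the well-counted lower members, chosen after their values were seen, were KRT80, a keratin, at -0.79 ± 0.04, -1.49 ± 0.04 and -4.12 ± 0.07, and CXADR, a junctional adhesion protein, at -0.64 ± 0.20, -1.73 ± 0.15 and -1.60 ± 0.06. Of the 4 luminal markers tested, KRT8 and KRT18 among them, none was a member or was called with the same sign in every pair.

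**Figure D3:**
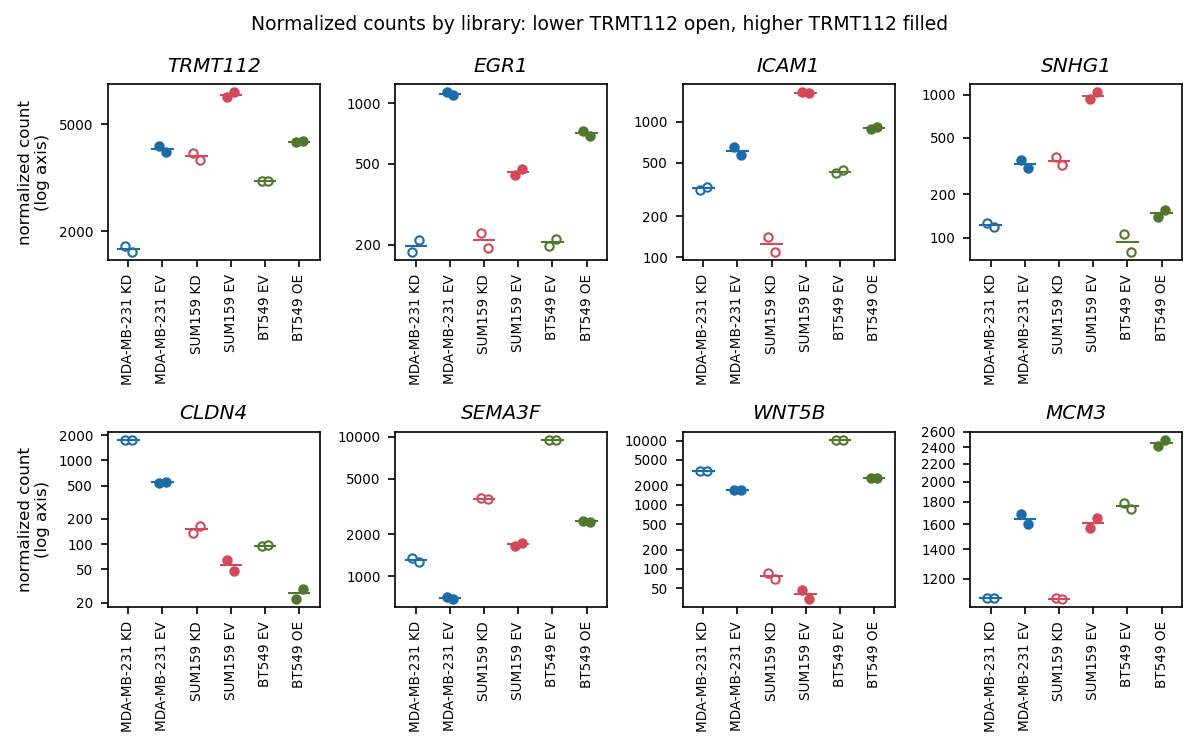
Normalized counts (vertical axis, log scale, a separate range for each gene) of 8 genes in the 12 libraries, by group (horizontal axis). Open points are the group with less TRMT112 (KD, or EV in BT549), filled points the group with more, and the bar is the mean of the 2 libraries. EGR1, ICAM1 and SNHG1 are higher and CLDN4, SEMA3F and WNT5B lower in the filled group of each line, beside TRMT112 and MCM3, which did not reach 1.5-fold in every line.

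Of 48 collagen and matrix genes tested 3 were members, 2 higher and 1 lower, beside 1.08% and 0.768% of all genes. None of the 48 was called higher in every pair, and FN1 and MMP14 were called lower. For the 3 members, the BT549 pair carried most of the counts. COL3A1, a fibrillar collagen, had 12972 and 13078 normalized counts in BT549 OE and 31.8 and 16.6 in EV. In SUM159 it had 315 and 288 in EV and 87.7 and 62.3 in KD, and in MDA-MB-231 1 EV library held 0.941 and the other 3 held 0. ELN, elastin, had 5622 and 5563 normalized counts in BT549 OE and 0 in both EV libraries, but no more than 26.3 in MDA-MB-231 and 4.02 in SUM159. FBLN2, a fibulin of elastic fibers, was lower, with 763 and 686 in BT549 OE and 10724 and 10364 in EV, and no more than 54.0 in the other two lines. Their fold changes in the KD lines rest on few counts, except that of COL3A1 in SUM159. CCL20, a chemokine, met the rule with no more than 11.1 normalized counts in any library.

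The remaining named members had other roles. PRR5L, a partner of mTOR complex 2, was at -0.85 ± 0.09, -2.49 ± 0.11 and -3.04 ± 0.17. ST6GALNAC5, a sialyltransferase, was at -0.82 ± 0.10, -4.45 ± 0.19 and -1.29 ± 0.14, and SLC45A1, a sugar transporter, at -1.27 ± 0.27, -2.59 ± 0.19 and -0.81 ± 0.21. SERTAD4 and OLFML2A were lower by values between -0.89 and -1.60. On the higher side, DOCK6, an exchange factor for Rac and Cdc42, was at 0.69 ± 0.10, 0.84 ± 0.13 and 1.39 ± 0.12, and NEMP2, a nuclear envelope protein, at 0.74 ± 0.09, 0.95 ± 0.10 and 0.72 ± 0.15. PCDHB2, a clustered protocadherin, was at 1.20 ± 0.27, 0.99 ± 0.27 and 2.24 ± 0.18. The protocadherin beta genes lie side by side on chromosome 5 and are alike in sequence, so reads may be split between them. Of the 12 tested, PCDHB2, PCDHB4 and PCDHB14 were higher members, beside 1.08% of all genes. In the line where each was lowest, the higher group averaged 2.34 normalized counts for PCDHB4 and 10.1 for PCDHB14. By direction alone, 11 of the 12 were higher in BT549, 6 in SUM159 and 4 in MDA-MB-231.

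SNHG1 (chromosome 11, 62851978 to 62855953), the host transcript of several small nucleolar RNAs, was the only noncoding member on a fixed list. It had 351 and 304 normalized counts in MDA-MB-231 EV and 126 and 118 in KD, 928 and 1034 in SUM159 EV and 363 and 320.0 in KD, and 139.5 and 156 in BT549 OE and 106 and 79.7 in EV. The groups did not overlap in any line, with log2 fold changes of 1.42 ± 0.13, 1.53 ± 0.10 and 0.67 ± 0.17. The long noncoding RNA ENSG00000272335 had the most even values of the named members, 0.71 ± 0.19, 0.72 ± 0.20 and 0.69 ± 0.22, at 51.5 to 127 normalized counts. LINC01106 was at 0.99 ± 0.28, 1.24 ± 0.23 and 2.91 ± 0.34, and its 2 BT549 EV libraries held 24.1 and 7.75 normalized counts. Some members overlap on the genome, as TMEM86B does with ENSG00000276570 over 1565 bases. Since the sources differ on whether the kit kept the strand, reads of such genes cannot be assigned with certainty.

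**Figure D4:**
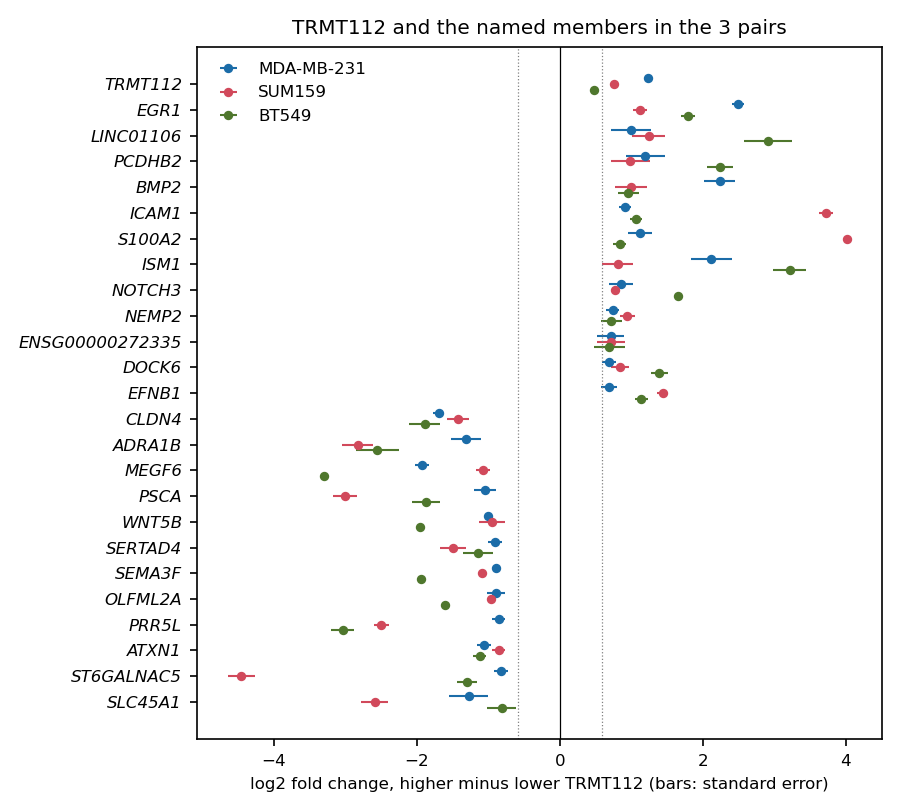
Log2 fold change of TRMT112 and the 12 named members per direction (horizontal axis, higher minus lower TRMT112) in MDA-MB-231, SUM159 and BT549. Points are the values of the fit with their standard errors and dotted lines mark 1.5-fold. All member points lie outside the dotted lines by the rule, while the BT549 point of TRMT112 lies inside at 0.48.

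The genes nearest to the threshold show how narrowly the rule divides. USP2-AS1 and HS6ST3 were just inside, with smallest values of 0.60 and 0.61 on the log2 scale where the threshold was 0.585, and CDCA7 and SMIM11 just outside, both with smallest values of 0.58. On the lower side HSDL1 at -0.60 was inside, and ENSG00000285283 and CTSF, each with a smallest change of -0.58, outside.

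Genes without a called difference between lines were read from the test of the mean of the 3 pairs. It called 5101 genes higher (30.8%) and 4702 lower (28.4%), and the effects of the lines differed for 12539 genes (75.8%). Of the genes called in the mean, the difference between lines did not pass the threshold for 553 higher and 405 lower genes. This alone does not show even effects, since 119 of the 179 higher and 74 of the 127 lower members did not pass it either. MCM3 (chromosome 6, 52264014 to 52284881), a subunit of the replicative helicase, was the first of the 553 higher genes by p. It had 1691 and 1603 normalized counts in MDA-MB-231 EV and 1083 and 1087 in KD, 1565 and 1653 in SUM159 EV and 1082 and 1079 in KD, and 2415 and 2495 in BT549 OE and 1784 and 1734 in EV. Its log2 fold changes were 0.60 ± 0.05, 0.57 ± 0.05 and 0.48 ± 0.05 (adjusted p = 0.235 for the difference between lines). WDR18, a ribosome assembly factor, had 0.52 ± 0.05, 0.57 ± 0.05 and 0.43 ± 0.06, and RCC1, the exchange factor of the nuclear transport GTPase Ran, 0.31 ± 0.03, 0.26 ± 0.03 and 0.31 ± 0.03. On the lower side HSDL1, which was also a member, had -0.60 ± 0.05, -0.69 ± 0.06 and -0.72 ± 0.06. TPM3, a tropomyosin, had -0.34 ± 0.02, -0.31 ± 0.02 and -0.35 ± 0.02. RCN1, a calcium-binding protein of the endoplasmic reticulum, had -0.39 ± 0.03, -0.39 ± 0.03 and -0.30 ± 0.03.

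The mean call counted the spread between libraries only. When the differences between lines were made part of the error, 1015 genes were called higher and 996 lower. With the line as the replicate (limma on 3 differences a gene) no gene was called in either direction, and 368 had an unadjusted p under 0.05.

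Genes on fixed lists were counted where they passed the test in every pair with the same sign, at any size, as 495 of all genes did in the higher (2.99%) and 634 in the lower direction (3.83%). Of 83 genes for ribosomal RNA processing and ribosome assembly, 21 were higher in every pair and none lower, and the list's median log2 fold changes were 0.06, 0.90 and 0.42. They included NCL, nucleolin, at 0.42 ± 0.03, 1.31 ± 0.03 and 0.71 ± 0.03, the RNA helicase DDX21 at 0.35 ± 0.04, 1.21 ± 0.04 and 0.94 ± 0.05, and PES1, a large-subunit assembly factor, at 0.11 ± 0.04, 1.34 ± 0.04 and 0.62 ± 0.04. None of the 21 reached 1.5-fold in all 3 pairs. In the single pairs, 35, 76 and 52 of the 83 were called higher and 14, 2 and 20 lower. Over all genes 16.5%, 31.4% and 35.6% were called higher and 21.2%, 28.6% and 35.0% lower. Across the other scalings, tools and filters 12 to 27 were called higher in every pair and none lower in every pair. Of 23 cytosolic aminoacyl-tRNA synthetases, which charge transfer RNA, 7 were higher in every pair and none lower in every pair (medians 0.18, 1.06 and 0.20), with 5 to 10 across the same settings. In the single pairs, 16, 22 and 12 of the 23 were called higher and 0, 1 and 8 lower. FARSA, a subunit of the phenylalanine enzyme, was at 0.26 ± 0.03, 1.03 ± 0.04 and 0.65 ± 0.04, and KARS1, the lysine enzyme, at 0.10 ± 0.03, 0.65 ± 0.03 and 1.19 ± 0.04. Of 44 DNA replication and G1/S genes 9 were higher, among them the helicase subunits MCM2, MCM3, MCM4, MCM5 and MCM6, and 3 were lower, CCND1, CCND3 and CDKN2C (medians 0.18, 0.09 and 0.17). Of 19 small nucleolar RNA host genes 4 were higher and none lower (medians 0.59, 0.16 and 0.56), with SNHG17 at 0.59 ± 0.07, 0.47 ± 0.07 and 1.11 ± 0.06 and SNHG29 at 0.37 ± 0.04, 0.31 ± 0.05 and 0.68 ± 0.05 beside the member SNHG1.

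Sterol synthesis genes gave the largest share in the lower direction, 7 of 25 with none higher, although the median was 0.21 in SUM159 beside -0.45 in MDA-MB-231 and -0.36 in BT549. The 7 were IDI1, MVD, MVK, INSIG1, SREBF2, STARD4 and EBP. INSIG1, which holds the sterol sensor in the endoplasmic reticulum, was at -0.86 ± 0.03, -1.50 ± 0.03 and -0.36 ± 0.03. For other lists the mean of the pairs and the pairs themselves gave unlike counts. Of 51 interferon genes 45 were lower in the mean, but the medians were -0.14, 0.89 and -6.05, and only IFI6 and BST2 were lower in every pair. Of 79 cytosolic ribosomal protein genes 45 were higher in the mean, with medians of -0.10, -0.24 and 0.46, and none was higher in every pair, while RPL7A, RPL35 and RPS6 were lower. The list of epithelial-to-mesenchymal transition factors and that of replication-dependent histones had no gene called with the same sign throughout. The sources differ on whether the RNA was selected by its poly(A) tail, which most histone mRNAs of this kind lack, so what share of these transcripts was read is not known.

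**Figure D5:**
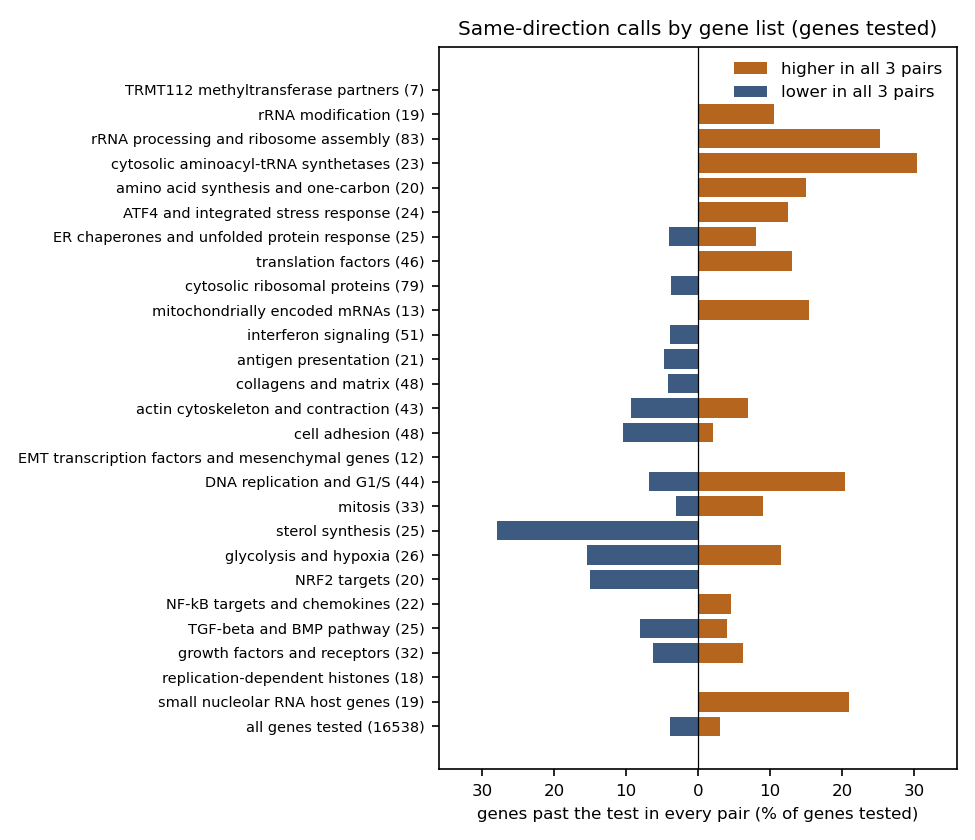
Share of each fixed gene list called with the same sign in all 3 pairs (horizontal axis, percent of the genes tested), with the number tested in parentheses. Brown bars to the right are genes higher with higher TRMT112 and blue bars to the left genes lower. Ribosomal RNA processing genes (21 of 83) and aminoacyl-tRNA synthetases (7 of 23) extend to the right and sterol synthesis genes (7 of 25) to the left, beside 2.99% and 3.83% of all genes in the bottom row.

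The genes with the pattern most like TRMT112 itself were ranked by the distance of their 3 log2 fold changes from 1.23, 0.76 and 0.48, among genes at 50 counts or more. UBA6-DT, a divergent transcript, was nearest at a distance of 0.28, with 0.96 ± 0.18, 0.70 ± 0.15 and 0.47 ± 0.17. MAST4, a microtubule-associated kinase, came next at 0.34, followed by ENSG00000267059, RIPK2-DT and SMAD9 at up to 0.48. Of the genes with the mirrored pattern HMOX1, heme oxygenase, was nearest at 0.36, with -0.88 ± 0.05, -0.69 ± 0.04 and -0.53 ± 0.03. The 6 genes that the study names as TRMT112-dependent targets did not keep one sign over the 3 pairs. The study reported ATP1B1, LMCD1, TPM1 and MDK as higher in its KD cells, a comparison without BT549. ASNS and VRK1 were added here after the data were seen. In both KD lines ASNS and VRK1 were higher, and LMCD1, MDK and TPM1 lower, with more TRMT112. ATP1B1 was lower in SUM159 and higher in MDA-MB-231. ASNS, asparagine synthetase, was at 0.82 ± 0.05, 2.73 ± 0.06 and -0.59 ± 0.10, and the kinase VRK1 at 0.66 ± 0.06, 0.88 ± 0.07 and -0.33 ± 0.09. ATP1B1, a sodium pump subunit, was at 0.24 ± 0.06, -1.21 ± 0.07 and 1.75 ± 0.07, and the transcription cofactor LMCD1 at -1.43 ± 0.09, -2.40 ± 0.08 and 3.02 ± 0.17. The growth factor MDK was at -1.00 ± 0.05, -2.41 ± 0.12 and 0.27 ± 0.03, and the tropomyosin TPM1 at -0.41 ± 0.03, -1.13 ± 0.03 and 0.72 ± 0.03.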

How the data were processed

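Polysome-associated RNA was measured in 12 libraries, 2 for each of 6 groups. The authors deposited estimated counts per transcript. Trimmomatic, HISAT2, SAMtools and Partek, with builds GRCh38 and hg38, are named in the submitters' processing notes, and the tool that estimated the counts is not given in the sources used here. In the 8 columns of the KD lines, 5.08% of the transcripts deposited by the authors carry a question mark in place of a count, for which the sources give no meaning. It was read as 0, and these transcripts held 0.121% of the BT549 counts.

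Counts were rounded and summed per gene symbol from GENCODE release 44, which matched 79.6% of the transcripts and at least 99.2% of the counts of each library; 169 symbols joined more than 1 gene. Of 24559 symbols, 16538 passed filterByExpr. edgeR 4.0.16 (R 4.3.3) fitted 6 group means with TMM scaling and quasi-likelihood tests, with Benjamini-Hochberg adjustment over all genes. Each standard error is the absolute log2 fold change divided by the square root of the F statistic of its quasi-likelihood test. Normalized counts are scaled to the mean effective library size. The cell line enters through the group means. limma 3.58.1 and DESeq2 1.42.0 gave alternatives. The low common dispersion, 0.000835, reflects the small spread between the 2 libraries of a group.

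The rule, members, gene lists and alternatives were chosen with earlier results of these data known. Genes were named as TRMT112, its partners, the study's genes (ASNS and VRK1 added later), the 12 members per direction with the largest smallest change (50 counts or more, called in every pair), members on a list, genes beside the threshold, genes called in the mean and not between lines, up to 3 genes a list by p, and genes most like TRMT112. The other list genes in the text were those called in every pair. Of the genes this rule names, 1 is not reported here. Counts were simulated for 16538 genes with 200 changed. The changed genes had a mean of at least 50 counts and the same fold in all 3 lines. There the mean contrast recovered 91.0% of genes changed by 1.5-fold, 95.5% at 2-fold and 90.9% at 4-fold. Of its calls 3.65% were unchanged genes. In the data the lines differed for 75.8% of the genes, so these shares do not carry over to them. No test of the number of members against chance was made.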

Additional observations from a re-analysis of the deposited data

Results flagged for a closer look

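The following results were singled out because the effect of the TRMT112 change differed between the lines by a test of the difference itself (edgeR, both differences between pairs at 0, adjusted p under 0.05). This held for 12539 of the genes tested. For TRMT112 the widest gap between the log2 fold changes of 2 lines was 0.75. Among its partners this gap was 3.44 for ALKBH8, 1.61 for TRMT11, 1.04 for METTL5, 0.74 for N6AMT1, 0.69 for THUMPD3 and 0.64 for both BUD23 and THUMPD2. Among the genes named by the study it was 5.42 for LMCD1, 3.33 for ASNS, 2.96 for ATP1B1, 2.68 for MDK, 1.85 for TPM1 and 1.21 for VRK1. BT549 was compared between other vectors and under another drug than the KD lines, so the line and the construct cannot be told apart in these gaps.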

How the results depend on the processing

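The number of members moved by over 1.5 times with the fold, the filter on low counts, a test in every pair and the level of counting. With 0.32 on the log2 scale as the smallest change there were 503 higher and 408 lower genes, and at 2-fold 66 and 43. Without the filter there were 369 and 290, and with a mean of at least 50 counts 64 and 65. An adjusted p under 0.05 in every pair left 35 and 41, and transcripts tested singly gave 1448 and 1417 transcripts. Library sizes without TMM gave 214 and 105, moved the median gene by up to 0.08 on the log2 scale; the other scalings and tools stayed between 168 and 179 higher and 126 and 140 lower. Members made up 22.4% to 23.8% of the genes at 1.5-fold in all pairs in the 8 settings where this was counted. Leaving out 1 library at a time gave 162 to 202 higher and 113 to 150 lower genes, and 51 and 40 members met the rule in all 12 of these fits, 14 and 20 of them at 50 counts or more. It gave 4840 to 4942 genes higher and 4503 to 4581 lower in the mean, and 12203 to 12294 that differed between lines. The mean of the pairs called 1015 higher and 996 lower with the differences between lines in the error, and 0 and 0 with the line as the replicate (limma, 368 at an unadjusted p under 0.05). BUD23 changed sign in the mean with library sizes alone, to 0.00046 on the log2 scale.

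With the replicate number as a block within each line, 177 genes met the rule as higher and 133 as lower, the mean called 5032 and 4665, and 12355 differed between lines. The numbers share only a number, since same-numbered libraries had deviations with r of 0.02, -0.02 and 0.00 in the 3 lines.

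Having 2 libraries a group limits every value, and for 189 members a group at or under 3 counts a library makes the fold depend on the prior count of the fit.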
